A study of Mus musculus with 24 samples.

Results

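The genes described here are 10 members of the Notch signalling pathway, the receptors Notch1, Notch2 and Notch3, the ligands Jag1, Jag2 and Dll1, and the transcription factors Hes1, Hes2, Hey1 and Heyl. They were chosen by name. The arrays carried 14 probes with these gene names, and the probe with the highest mean signal stood for each gene, so that 10 of the 22065 genes or transcripts tested were members. All 10 probes were well above background on all 24 arrays, so the filter on dim probes removed no member. The other 4 probes, 1 each for Notch1, Notch2, Dll1 and Heyl, were well above background on 0 arrays and were not used.

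The follicles were vibrissae of B6C3F1 mice, a hybrid of the C57BL/6 and C3H strains, isolated on postnatal day 9. They were cultured for 24 h in RPMI 1640 medium with 10% fetal bovine serum, which all groups shared, and 10 follicles made 1 sample. The 8 groups were an untreated control, PEE (panthenyl ethyl ether at 0.3%, a derivative of the provitamin panthenol), PH (pyridoxine hydrochloride at 0.015%, a form of vitamin B6), TA (tocopherol acetate at 0.024%, an ester of vitamin E), the pairs PEE-PH, PEE-TA and PH-TA, and PEE-PH-TA with all 3, at the same doses. Each group had 3 samples from 3 independent experiments, each on 1 one-colour Agilent array, and each of the 3 slides carried 1 array per group. Whole follicles were measured, so that fewer cells of a type and less RNA per cell cannot be told apart.

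In Notch signalling a ligand of the Jagged or Delta family on 1 cell binds a Notch receptor on its neighbour. The receptor is then cut by ADAM proteases and by the gamma-secretase complex, and its released intracellular domain joins the DNA-binding protein RBPJ and Mastermind coactivators in the nucleus. Genes of the Hes and Hey families, which encode basic helix-loop-helix repressors, are its best known direct targets. In the growing hair follicle Notch receptors and ligands are active in the matrix and in the forming hair shaft and inner root sheath, where the pathway acts in differentiation.

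Values are log2 signal relative to the 75th percentile of the signal on the same array, called relative signal below, and a difference of 1 is a doubling. The 75th percentile ran from 142 to 248 signal units, was lowest on the 3 PEE arrays (142 to 147) and highest on the 3 PH-TA arrays (203 to 248), and between 58.3 and 62.5% of spots were well above background. Across the 24 arrays, which share their groups and slides, log2 of that percentile correlated with the relative signal of Notch3 (Pearson r = 0.86, Spearman rho = 0.86), Dll1 (0.81 and 0.75) and Jag2 (0.73 and 0.71), and negatively with Notch1 (-0.71 and -0.60). For Hey1 the values were -0.16 and -0.017. The percentile therefore differed between the groups along with most members, and each result below was also fitted with it as a covariate. Tests are limma's, with Benjamini-Hochberg adjustment over all 22065 genes within a comparison and a threshold of 0.05. The number of arrays limits the precision, and SE stands for the standard error of the fit.

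Against control, Hey1 and Heyl held the largest rises past the threshold among the members. Hey1 rose wherever PEE was present, and Heyl rose with each mixture of compounds. Notch2, Notch3, Jag2 and Dll1 rose by smaller amounts with pairs of compounds, Jag1 fell on average with PEE, and Hes1 passed the threshold in none of the 17 comparisons. Against control, 1 of 10 members rose with PEE, where 10.9% of all genes passed the threshold and 5.2% rose. For PH the count was 0 members, where 5.25% of genes passed and 4 members had an unadjusted p under 0.05. For TA it was 1 that rose, where 1.83% passed and 0.399% rose. The PEE-PH pair had 4 members that rose and 1 that fell, where 35.9% passed, 14.9% rose and 20.9% fell. The PEE-TA pair had 6 that rose (25.5% of genes passed, 10.2% rose), the PH-TA pair 5 (29.6% passed, 12.1% rose) and the mixture of all 3 had 2 (16.5% passed, 7.78% rose). The members whose treated arrays did not overlap the control arrays numbered 5 for PEE, 4 for PH, 6 for TA and 3 for the mixture of all 3, where 32.6%, 26.5%, 22.7% and 32.6% of all genes were separated. They numbered 6 for the pair PEE-PH, 7 for PEE-TA and 7 for PH-TA, where 49.9%, 41.1% and 44.6% of genes were. These 7 comparisons share the same 3 control arrays.

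**Figure D1:**
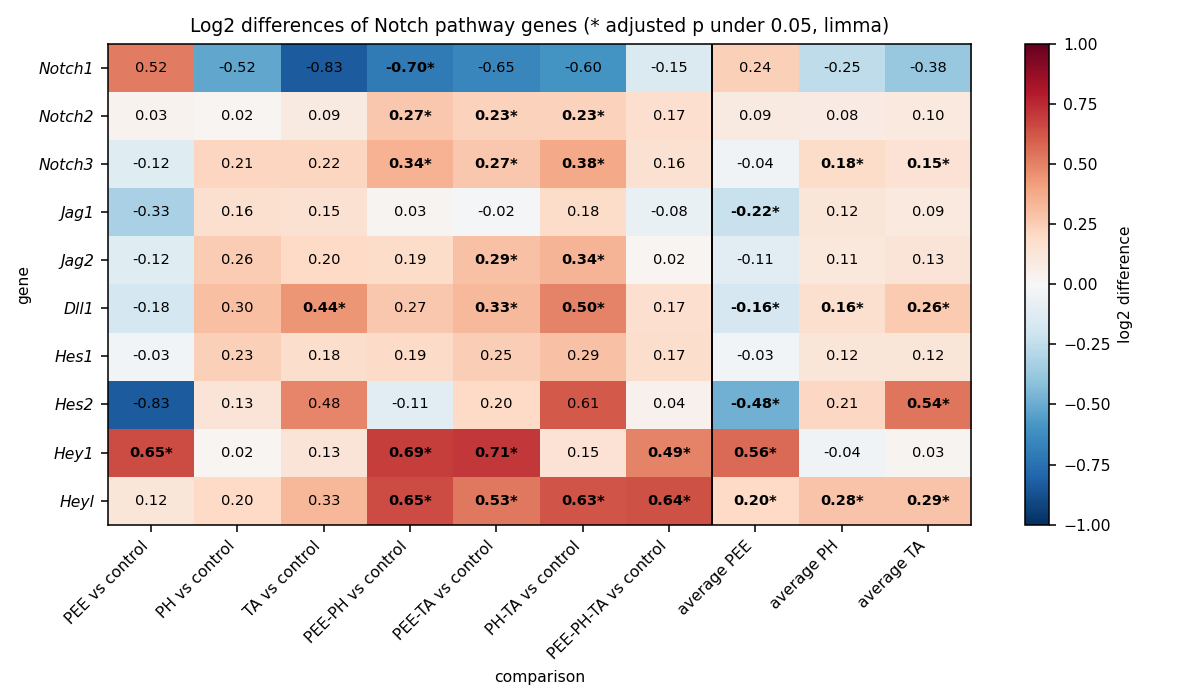
Log2 differences of the 10 members (rows) for the 7 comparisons with control and the 3 average effects (columns), coloured from blue (lower) to red (higher), with an asterisk where the adjusted p of limma was under 0.05. The Hey1 row is marked in each of the 4 columns with PEE against control, and the Heyl row in each of the 4 mixtures.

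The average effect of a compound was taken over its 4 backgrounds (none, each of the other single compounds, and both of them), so it uses all 24 arrays. By this measure 2 members rose and 3 fell for PEE, where 27% of all genes passed, 12.8% rose and 14.2% fell. For PH 3 rose (31.3% of genes passed, 13.9% rose), and for TA 4 rose (7.99% passed, 2.78% rose). Over the 10 members the medians of these average effects were -0.034 (PEE), 0.12 (PH) and 0.13 (TA), against 0.0072, -0.022 and -0.012 over all genes. The share of called genes that rose depended on scaling over all genes, for example 44.3% for the average effect of PH and 58.2% after quantile normalization. No call of a member for an average effect changed sign under quantile or normexp scaling.

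Among the ligands, Jag1, a Jagged ligand, had relative signals of 0.82, 0.88 and 0.78 in control and of 0.60, 0.39 and 0.51 with PEE (replicates 1, 2 and 3). The 3 PEE arrays lay below all 3 control arrays. The difference of -0.33 ± 0.12 (SE) missed the threshold (adjusted p = 0.0958), but on average over the 4 backgrounds Jag1 fell by 0.22 (SE 0.06, adjusted p = 0.0101), and it was lower with PEE in 12 of 12 comparisons within a slide. The mean differences were -0.21, -0.30 and -0.16 on slides 1, 2 and 3. With the 75th percentile as a covariate the average was -0.19 (adjusted p = 0.0587), and it lost the call without replicate 1 (0.113) or without replicate 2 (0.0811).

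Jag2, the other Jagged ligand, had relative signals of -0.39, -0.44 and -0.47 in control. In the PH-TA pair they were -0.11, -0.17 and 0.0015, in PEE-TA they were -0.12, -0.09 and -0.21, so both pairs lay above control without overlap. Jag2 rose by 0.34 ± 0.09 with PH-TA (adjusted p = 0.00737) and by 0.29 ± 0.09 with PEE-TA (adjusted p = 0.0204). With all 3 compounds 2 of the arrays were low again (-0.50, -0.58 and -0.17), and the difference from control was 0.017 ± 0.09. With the 75th percentile as a covariate neither rise passed (adjusted p = 0.467 with PH-TA and 0.0966 with PEE-TA). Both also missed the threshold with the authors' deposited table (0.0537 with PH-TA and 0.0798 with PEE-TA). The call with PEE-TA was kept in 3 of 9 fits that left out 1 of the arrays compared or 1 replicate number, and the call with PH-TA in 6 of 9.

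Dll1, a ligand of the Delta family, was the only member past the threshold with TA alone, where 5 members had an unadjusted p under 0.05. Its relative signals were -1.61, -1.64 and -1.78 in control, -1.28, -1.20 and -1.23 with TA and -1.13, -1.16 and -1.25 with PH-TA, and neither treated group overlapped control. Dll1 rose by 0.44 ± 0.11 with TA (adjusted p = 0.0436), by 0.50 ± 0.11 with PH-TA (0.00273) and by 0.33 ± 0.11 with PEE-TA (0.0331). With PEE alone it was -1.81, -1.88 and -1.87, below all control arrays, and the difference of -0.18 ± 0.11 did not pass. On average Dll1 rose by 0.26 ± 0.05 with TA (adjusted p = 0.00928) and by 0.16 ± 0.05 with PH (0.0288), and fell by 0.16 (SE 0.05) with PEE (0.0294). All of these calls of Dll1 were lost with the 75th percentile as a covariate (adjusted p = 0.0970 with TA, 0.617 with PH-TA and 0.207 with PEE-TA), and the average effect of PH then turned to -0.023 (0.922). The call with PEE-TA was also lost without the filter on dim probes (0.0570), after normexp (0.0639) and with the arrays compared alone (0.0526). The average of PEE was lost without the filter (0.0530), after normexp (0.0762) and with the authors' deposited table (0.0663), and that of PH after normexp (0.193). The call with TA alone was also lost with the authors' deposited table (0.104), without the filter on dim probes (0.0776) and with the arrays compared alone (0.0675). The same call was lost in 9 of 9 fits that left out an array or a replicate number (adjusted p up to 0.358). The call with PEE-TA was lost in 7 of 9 of these fits, and that with PH-TA only without replicate 1 (0.0675). Of 27 such fits the average of PEE kept its call in 20, and lost it without each of the 3 numbers (0.118, 0.149 and 0.0950). That of PH was kept in 18 and that of TA in 25, and both were lost without replicate 1 (0.274 and 0.120) or 3 (0.191 and 0.122).

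**Figure D2:**
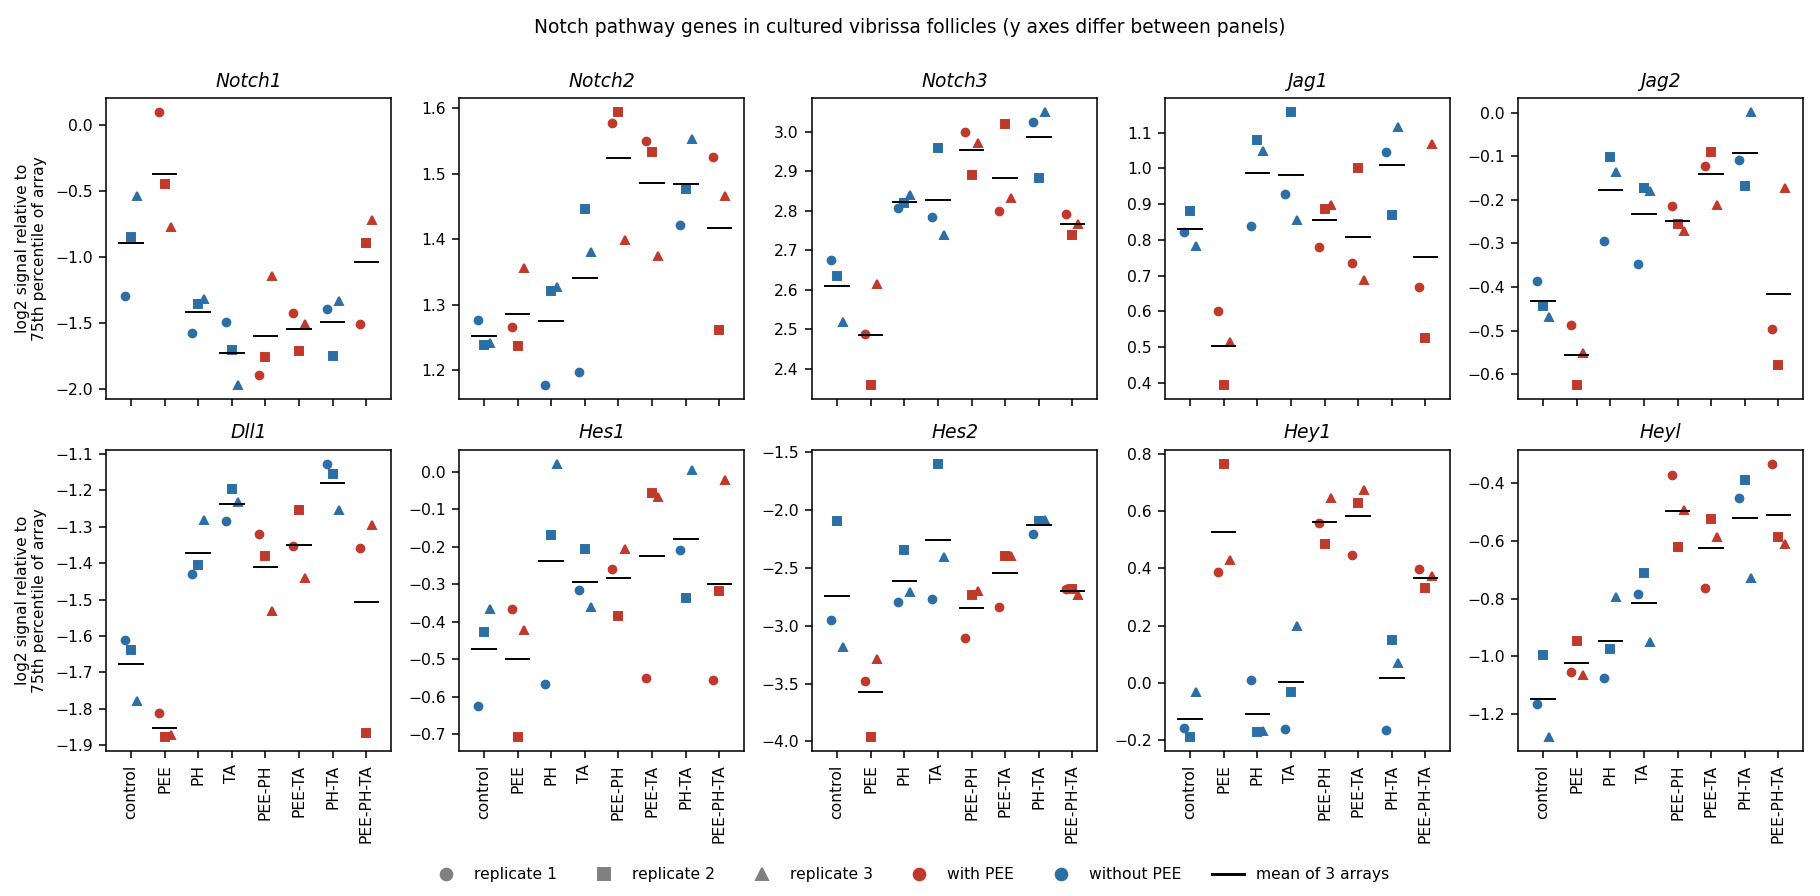
Relative signal (log2, y axes differ between panels) of each member in the 8 groups, with 1 point per array, its shape giving the replicate number, and a bar for the mean of 3. Points of groups with PEE are red: for Hey1 all 12 lie above all 12 blue points, while for Notch3, Jag2 and Dll1 the points of PEE alone are among the lowest.

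Among the receptors, Notch3 had relative signals of 2.68, 2.63 and 2.52 in control. In the PEE-PH pair they were 3.00, 2.89 and 2.97, in PEE-TA 2.80, 3.02 and 2.83, and in PH-TA 3.03, 2.88 and 3.05. Every array of the 3 pairs lay above every control array. For the PEE-PH pair Notch3 rose by 0.34 ± 0.08 (adjusted p = 0.00211), for PEE-TA by 0.27 ± 0.08 (0.0148) and for PH-TA by 0.38 ± 0.08 (0.00188). The arrays with PH alone (2.81, 2.82 and 2.84) and TA alone (2.78, 2.96 and 2.74) also did not overlap control, but those differences missed the threshold (adjusted p = 0.117 and 0.153). On average Notch3 rose by 0.18 ± 0.04 with PH (0.00215) and by 0.15 ± 0.04 with TA (0.0273), and the average effect of PEE was -0.039 ± 0.038. With the 75th percentile as a covariate the 3 pairs gave 0.25, 0.22 and 0.25 with adjusted p = 0.116, 0.0777 and 0.319, and neither average passed. Without replicate 1 the pairs PEE-PH (0.0552), PEE-TA (0.0605) and PH-TA (0.0568) each missed the threshold too. So did PEE-TA without replicate 2 (0.136) or 3 (0.114) and PH-TA without replicate 3 (0.0504). PEE-TA also missed it with the arrays compared alone (0.0881). The average of TA was lost without each of the 3 numbers (0.161, 0.204 and 0.134) and with the authors' deposited table (0.0591), and that of PH without replicate 1 (0.102).

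Notch2 rose with the same pairs, by 0.27 ± 0.08 for PEE-PH (adjusted p = 0.0148), by 0.23 ± 0.08 for PEE-TA (0.0426) and by 0.23 ± 0.08 for PH-TA (0.0390). Its control arrays lay close together (1.28, 1.24 and 1.24), and all arrays of these pairs, from 1.37 to 1.59, lay above them. The rise with PEE-TA missed the threshold with the replicate number as a block (0.0525), and with the 75th percentile as a covariate all 3 rises did (0.382, 0.197 and 0.826). PEE-TA also missed it without the filter on dim probes (0.0730). With the arrays compared alone PEE-TA (0.0839) and PH-TA (0.0617) missed it too. The call with PH-TA was kept in 0 of 9 fits that left out an array or a replicate number, that with PEE-TA in 1 of 9 and that with PEE-PH in 5 of 9.

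Notch1 went the other way. Its relative signals were -1.30, -0.85 and -0.54 in control and -1.89, -1.76 and -1.14 with PEE-PH, and 1 array of the pair lay above the lowest control array. Notch1 fell by 0.70 (SE 0.25) with PEE-PH (adjusted p = 0.0338), a call lost with the 75th percentile as a covariate (-0.37, 0.504) and kept in 4 of 9 fits that left out an array or a replicate number. That call was also lost with the authors' deposited table (-0.63, 0.0562) and with the arrays compared alone (0.0935). With TA alone all arrays (-1.49, -1.71 and -1.97) lay below control, and the difference of -0.83 ± 0.25 missed the threshold (0.0916), as did PEE-TA (-0.65, 0.0608), PH-TA (-0.60, 0.0759) and the average of TA (-0.38, 0.0666). That average passed after normexp (-0.25, 0.0191) and without the filter on dim probes (0.0412), and after normexp PEE-TA (-0.42, 0.0455) and PH-TA (-0.44, 0.0201) passed too, as did the average of PH (-0.21, 0.0270). With PEE alone the arrays spread from -0.78 to 0.10. The spread of Notch1 within groups (pooled SD 0.32) was larger than that of 83.8% of all genes, where the median gene had 0.15.

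Among the targets, Hey1 passed the threshold against control in each group with PEE and Heyl in each mixture. Hes2 passed for the averages of PEE and TA, and Hes1 in no comparison. Hey1, a Hey family repressor, had relative signals of -0.16, -0.19 and -0.03 in control and of 0.39, 0.77 and 0.43 with PEE. In the PEE-PH pair they were 0.56, 0.48 and 0.64, in PEE-TA 0.45, 0.63 and 0.67, and in the mixture of all 3 they were 0.40, 0.33 and 0.37. All 12 arrays with PEE lay above all 12 arrays without it, of which the highest was a TA array at 0.20. Hey1 rose by 0.65 ± 0.11 with PEE (1.57-fold, adjusted p = 0.00077). The rise was 0.69 ± 0.11 (0.000111) for the PEE-PH pair, 0.71 ± 0.11 (0.000191) for PEE-TA and 0.49 ± 0.11 (0.0039) for all 3 compounds. The differences with PH (0.017), TA (0.13) and PH-TA (0.15) did not pass the threshold, with 95% intervals of -0.21 to 0.24, -0.10 to 0.36 and -0.08 to 0.37.

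The average effect of PEE on Hey1 was a rise of 0.56 ± 0.05 (95% interval 0.45 to 0.68, adjusted p = 3.76e-07). It was 0.57, 0.61 and 0.51 on slides 1, 2 and 3, and positive in 12 of 12 comparisons within a slide. The value was 0.52 (adjusted p = 5.05e-06) with the 75th percentile as a covariate, and it passed in 8 of 8 alternative settings and in 27 of 27 fits that left out an array or a replicate number. Without replicate 2 the comparison with PEE alone (0.0936) and that with PEE-PH-TA (0.0637) missed the threshold.

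Heyl, the other Hey family member on the list, rose with each mixture of 2 or 3 compounds. Its relative signals were -1.17, -0.997 and -1.28 in control, and the PEE-PH pair had -0.37, -0.62 and -0.49. The PEE-TA pair had -0.76, -0.52 and -0.59, the PH-TA pair -0.45, -0.39 and -0.73, and the mixture of all 3 had -0.33, -0.59 and -0.61. None of these 12 arrays overlapped control. Heyl rose by 0.65 ± 0.11 for the PEE-PH pair (adjusted p = 0.000212) and by 0.53 ± 0.11 for PEE-TA (0.00237). The rise was 0.63 ± 0.11 (0.000732) for PH-TA and 0.64 ± 0.11 (0.00065) for all 3 compounds. With single compounds Heyl differed from control by 0.12 (PEE), 0.20 (PH) and 0.33 (TA), none past the threshold. The arrays with TA alone (-0.78, -0.71 and -0.95) also did not overlap control. Each of the 4 rises was kept in 9 of 9 fits that left out an array or a replicate number. With the 75th percentile as a covariate PEE-PH (0.49, adjusted p = 0.033), PEE-TA (0.44, 0.0173) and PEE-PH-TA (0.59, 0.00163) still passed and PH-TA (0.40, 0.247) did not.

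On average Heyl rose by 0.20 ± 0.06 with PEE (adjusted p = 0.0121), 0.28 ± 0.06 with PH (0.00111) and 0.29 ± 0.06 with TA (0.00676). Over the backgrounds, the difference made by adding a compound ran from 0.013 to 0.45 for PEE and from 0.11 to 0.53 for PH. For TA it ran from -0.013 to 0.43. No mixture differed past the threshold from the sum of its single compounds for Heyl, so a dependence on the background was not shown. With the 75th percentile as a covariate the average of PEE passed (0.24, 0.00642), and those of PH (0.16, 0.415) and TA (0.20, 0.280) did not. Without replicate 1 all 3 averages missed the threshold (0.120, 0.0598 and 0.0901), as did that of PEE without replicate 3 (0.0826) and that of TA without replicate 2 (0.102) or 3 (0.0559).

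**Figure D3:**
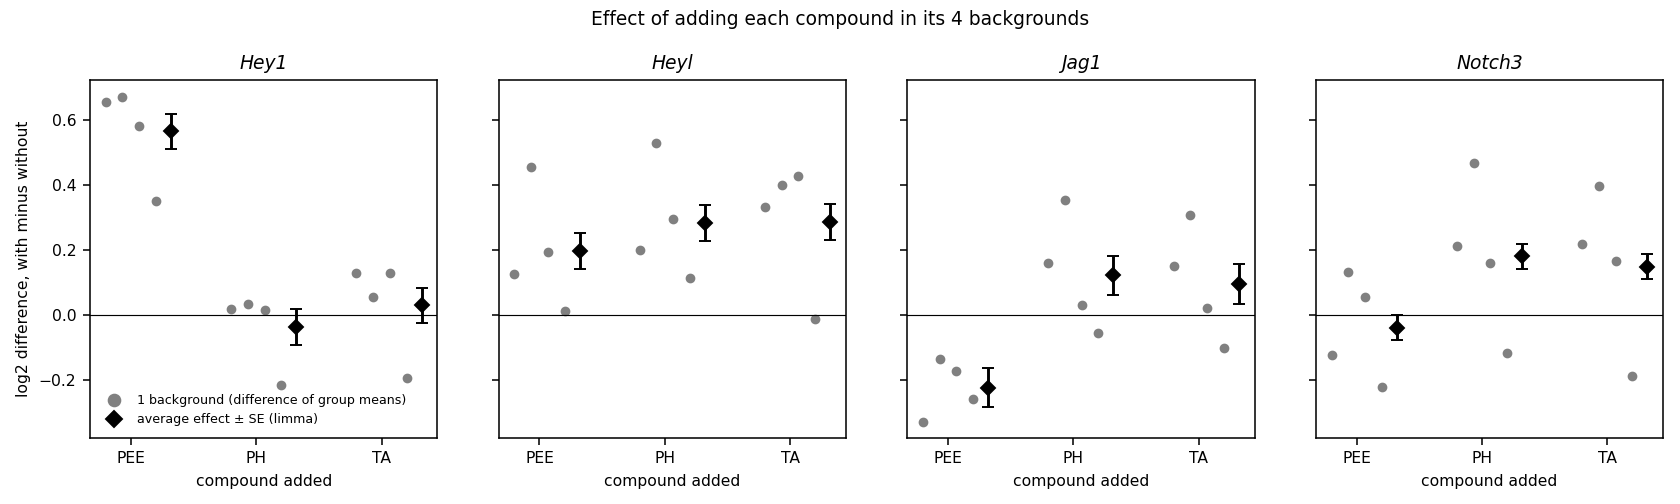
Log2 difference made by adding PEE, PH or TA to each of its 4 backgrounds (grey points, differences of group means) and the average effect with its SE (black diamonds), for Hey1, Heyl, Jag1 and Notch3. All 4 points for PEE lie above 0.3 for Hey1 and below 0 for Jag1.

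Hes2 was the dimmest member and had the largest spread (pooled SD 0.35). Its relative signals were -2.95, -2.09 and -3.18 in control and -3.48, -3.96 and -3.29 with PEE, so all PEE arrays were lower. That difference of -0.83 ± 0.27 missed the threshold (adjusted p = 0.0559), and it passed with the replicate number as a block (0.0365) and after quantile normalization (-0.98, 0.0290). On average Hes2 fell by 0.48 (SE 0.14) with PEE (adjusted p = 0.0124) and rose by 0.54 ± 0.14 with TA (0.0239). Neither average passed with the 75th percentile as a covariate (0.0531 and 0.364). After normexp the average of TA was 0.12 (0.0660). Both were also lost without replicate 1 (0.0588 and 0.122), that of PEE without replicate 2 (0.0842) and that of TA without replicate 3 (0.205). Hes1, the most studied target of the pathway, had relative signals from -0.71 to 0.02 over the 24 arrays, with average effects of -0.030 ± 0.08 for PEE, 0.12 ± 0.08 for PH and 0.12 ± 0.08 for TA.

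Whether a mixture differed from the sum of its single compounds on the log2 scale was tested for the 3 pairs and for all 3 compounds. No member passed in these 4 comparisons by limma, where 0%, 0.068%, 0.0136% and 0% of all genes passed for PEE-PH, PEE-TA, PH-TA and PEE-PH-TA. At an unadjusted p under 0.05 there were 2, 0, 1 and 0 members. With normexp background correction Notch3 was above the sum with PEE-PH (0.32, adjusted p = 0.0359), but under that setting 445 genes (2.02%) were above the sum and 4723 below it.

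The mixture of all 3 compounds was also set against each pair, a comparison added after the data were seen. Against PEE-PH (0.721% of all genes passed) and PEE-TA (0.24%) 0 members passed, with 2 and 1 at an unadjusted p under 0.05. Against PH-TA, where 13.5% passed, 8.61% higher and 4.91% lower, Hey1 was higher by 0.35 ± 0.11 (adjusted p = 0.0392) and Jag2 was lower by 0.32 (SE 0.09; log2 difference -0.32, adjusted p = 0.0198). These calls were kept in 2 and 3 of 9 fits that left out an array or a replicate number and were lost with the 75th percentile as a covariate (0.654 and 0.429). Both were also lost with the authors' deposited table (0.0586 and 0.130) and with the arrays compared alone (0.127 and 0.203). Notch3 was lower than with PH-TA by a difference of -0.22 that missed the threshold (0.0638) and passed after quantile normalization (-0.26, 0.0347).

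Over the 24 arrays some members moved together. Pearson r was 0.85 between Jag2 and Dll1, 0.81 between Jag1 and Jag2, 0.79 between Notch3 and Jag2 and 0.79 between Notch3 and Dll1. After the group means were taken out these values were 0.60, 0.82, 0.36 and 0.27. The arrays share groups, slides and the 75th percentile to which these genes were related, so the values are a description. Hey1 and Heyl had r = 0.38, and -0.049 within groups.

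The promoters of 3 of the members that moved together, Notch3, Jag2 and Dll1, are printed so that their composition can be compared. They are the 250 bases before the RefSeq gene start on build GRCm38.p6, on the strand of the gene, 5′ to 3′, with each GC box (GGGCGG on either strand, a site known for SP1) in capitals. Notch3 lies at chr17:32166891-32167140 and Jag2 at chr12:112929496-112929745, and the Dll1 window, before the outer of its 2 listed starts, is chr17:15376933-15377182, all on the minus strand.
Notch3: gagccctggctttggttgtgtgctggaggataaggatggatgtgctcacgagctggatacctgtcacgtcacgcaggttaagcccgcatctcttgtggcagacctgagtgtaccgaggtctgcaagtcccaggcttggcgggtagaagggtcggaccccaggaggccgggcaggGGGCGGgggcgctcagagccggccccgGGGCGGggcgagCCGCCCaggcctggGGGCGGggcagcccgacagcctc
Jag2: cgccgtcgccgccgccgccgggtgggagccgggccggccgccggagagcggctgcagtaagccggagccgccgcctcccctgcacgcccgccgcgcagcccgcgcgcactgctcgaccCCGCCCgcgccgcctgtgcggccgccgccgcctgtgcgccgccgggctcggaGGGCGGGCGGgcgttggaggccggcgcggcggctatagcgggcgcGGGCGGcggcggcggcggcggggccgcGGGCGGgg
Dll1: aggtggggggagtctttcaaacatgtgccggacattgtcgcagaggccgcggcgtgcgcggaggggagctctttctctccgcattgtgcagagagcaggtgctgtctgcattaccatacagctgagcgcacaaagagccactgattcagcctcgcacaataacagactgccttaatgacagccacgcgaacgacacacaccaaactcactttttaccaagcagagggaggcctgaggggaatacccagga

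The 3 windows differ in composition, with 68.8% G and C and 4 GC boxes for Notch3, 87.2% and 5 (a pair of them overlapping) for Jag2, and 56.0% and 0 for Dll1. The GC box was found in 32.7% of all 32851 listed promoters of this length. Of the members, 6 matched a listed promoter, which gave 7 windows, since Dll1 has 2 starts. The window before the other Dll1 start had 64.0% G and C and 0 GC boxes. The RBPJ core TGGGAA, found in 21.6% of all promoters on either strand, the antioxidant response element TGACNNNGC (10.2%), the E-box CACGTG (6.02%) and the TATA box TATAAA (12.4%) were not among the letters of any of the 7 windows. Hes1, Hes2, Hey1 and Heyl had no match.

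The genes whose relative signal was most like that of each member over the 24 arrays were ranked by Pearson r, as a description. For Notch3 the first was Foxn1 (r = 0.92), a transcription factor of the hair matrix, with Celsr2 and Elp2 next. For Hey1 the first was Gstm6 (0.92), a glutathione S-transferase, with Mllt11 next, and for Heyl it was Smpd1 (0.90), an acid sphingomyelinase, with Mapre3 and Ppt2 next. Hes2 was most like Gjb5 (0.93), a connexin, Jag1 most like Cnot2 (0.92), and Jag2 and Dll1 both most like Farp1 (0.89 and 0.88). Notch2 was most like Stt3b (0.86) and Hes1 like Cnksr3 (0.81). Notch1 correlated above 0.9 with 32 genes, led by Pnma2, Ermn and Pigr (0.96 each), against 9 or fewer genes for any other member.

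Of 58 other genes of the pathway, 56 were tested, and Hes3 and Hey2 were not. Of the 56, 14 rose and 8 fell on average with PEE, where 12.8% and 14.2% of all genes did. For PH 16 rose and 3 fell (13.9% and 17.4% of all genes), and for TA 2 rose and 2 fell (2.78% and 5.2%). Against control, 11 rose and 2 fell for the mixture of all 3 (7.78% and 8.72%). With the replicate number as a block 5 fell with PH. The medians of their average effects were 0.076 (PEE), 0.077 (PH) and 0.044 (TA). With the 75th percentile as a covariate the counts were 15 and 5 for PEE, and 0 in either direction for PH and for TA. Without 1 of the replicate numbers, 7 or 8 rose and 3 to 5 fell with PEE, 3 to 10 rose and 1 or 2 fell with PH, and 0 passed with TA. Of the calls for PEE-PH-TA, that of Psen2 was kept in 9 of 9 fits that left out an array or a number, those of Hes5 and Dtx3l in 8 and that of Numbl in 7. The other 9 calls were kept in 4 fits or fewer, and those of Dll4, Neurl1a and Dtx2 in 2.

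Among receptors and ligands, Notch4, a receptor best known from blood vessels, rose by 0.45 ± 0.08 on average with PEE (adjusted p = 0.000322) and by 0.60 ± 0.16 with PEE-PH-TA (0.0154). Its mean relative signal was 1.87 ± 0.06 (SD, n = 3) in control and 2.64 ± 0.12 with PEE. In groups without PEE it was 2.23 ± 0.05 with TA and 2.68 ± 0.42 with PH-TA. Dll4, the vascular Delta ligand, rose by 0.47 ± 0.11 on average with PEE (0.00302) and by 0.69 ± 0.22 with PEE-PH-TA (0.0355), higher in 8 of 12 comparisons within a slide. For Dll4 the mean relative signal was -2.85 ± 0.29 (SD, n = 3) in control and -2.02 ± 0.20 with PEE. Without PEE it was -2.07 ± 0.32 with TA and -1.96 ± 0.37 with PH-TA. The non-canonical ligand Dlk2 fell by 0.13 (SE 0.04) with PEE (0.0281). Dll3 passed for the average of PH (0.61 ± 0.18, 0.0157), but it was not well above background on any control or TA array, and after normexp the difference was -0.083 (0.0226).

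**Figure D4:**
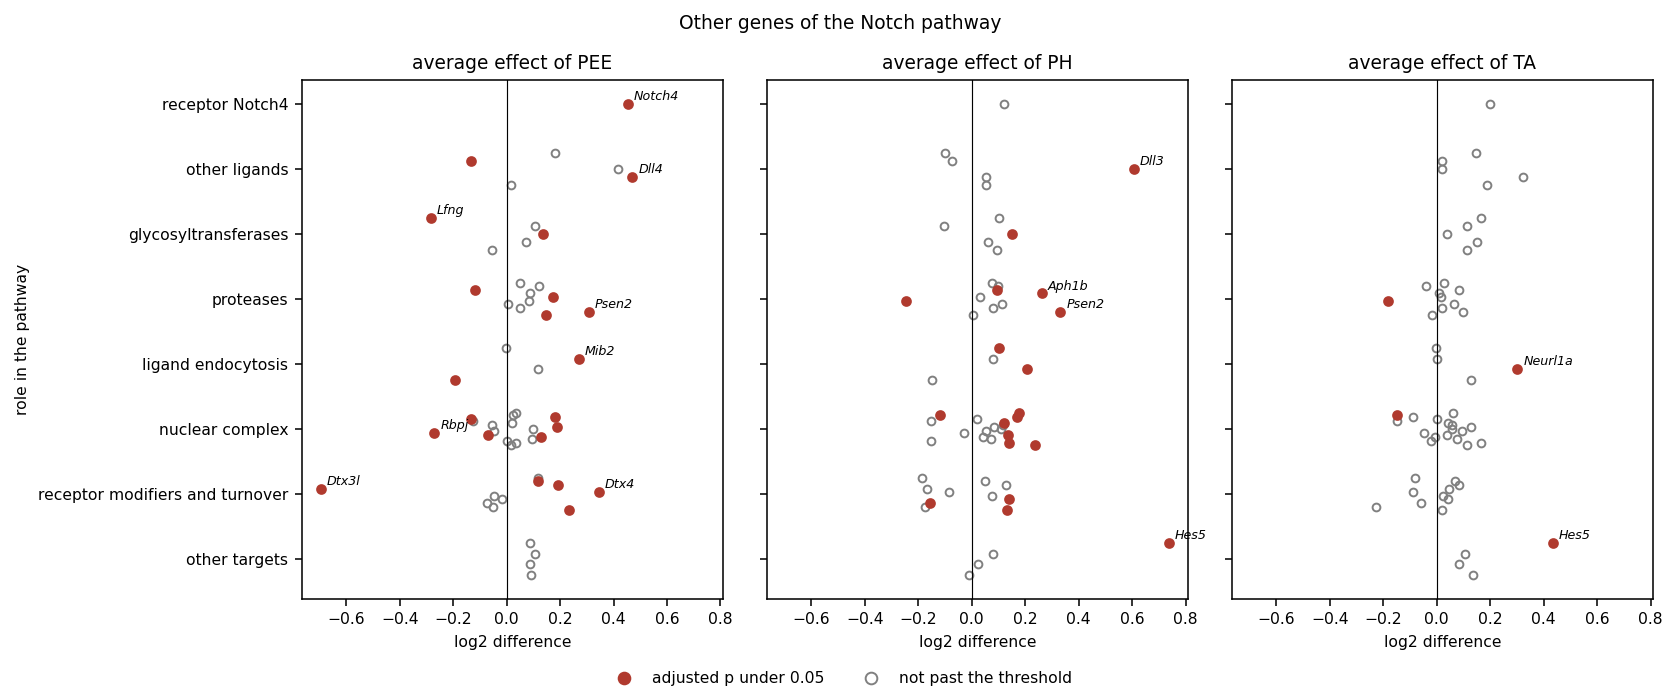
Average effects (log2 difference) of PEE, PH and TA on the 56 other pathway genes tested, in rows by role, filled where the adjusted p of limma was under 0.05 and named where the size was also above 0.25. With PEE the named points run from Dtx3l at -0.70 to Dll4 at 0.47, and with PH Hes5 lies farthest right at 0.74.

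Among enzymes that act on the receptors and ligands, Lfng, a Fringe glycosyltransferase that tunes which ligands a Notch receptor answers, fell by 0.28 (SE 0.06) with PEE (adjusted p = 0.00274). Pofut1, which adds O-fucose to Notch, rose by 0.13 ± 0.04 with PEE (0.0106), 0.15 ± 0.04 with PH (0.00516) and 0.26 ± 0.07 with PEE-PH-TA (0.0195), although the mean of its probes was lower for the last pair of comparisons (-0.062 and -0.21). Psen2, a catalytic presenilin of gamma-secretase, rose by 0.31 ± 0.05 with PEE (0.000222), 0.33 ± 0.05 with PH (0.000233) and 0.59 ± 0.11 with PEE-PH-TA (0.000865). The gamma-secretase subunit Aph1c rose by 0.17 ± 0.04 with PEE (0.00107) and by 0.26 ± 0.07 with PEE-PH-TA (0.0155), Aph1b by 0.26 ± 0.06 with PH (0.0036), and Aph1a fell by 0.12 (SE 0.03) with PEE (0.00802). Furin, the convertase that cuts Notch receptors on their way to the surface, fell by 0.25 (SE 0.06) with PH (0.00293) and by 0.18 (SE 0.06) with TA (0.0481). Its call with TA was kept in 4 of 8 alternative settings. Of 27 fits that left out an array or a replicate number, that call was kept in 7.

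Among the ubiquitin ligases that help ligand endocytosis, Mib2 rose by 0.27 ± 0.04 with PEE (adjusted p = 6.06e-05) and by 0.30 ± 0.08 with PEE-PH-TA (0.0157), and Neurl1b fell by 0.19 (SE 0.06) with PEE (0.0172). Neurl1a rose by 0.21 ± 0.06 with PH (0.0109), 0.30 ± 0.06 with TA (0.00588) and 0.40 ± 0.11 with PEE-PH-TA (0.0199), and Mib1 by 0.10 ± 0.04 with PH (0.0389). The call of Mib1 was kept in 5 of 8 alternative settings and in 11 of 27 fits leaving out an array or number. Among modifiers of the receptor, Dtx3l, a partner of PARP9 and a Deltex family ligase, fell by 0.70 (SE 0.11) with PEE (7.45e-05) and by 0.99 (SE 0.21) with PEE-PH-TA (0.00359). Dtx4 rose by 0.35 ± 0.06 with PEE (0.000215), Numbl, a Numb family protein, by 0.23 ± 0.04 with PEE (0.000151), 0.13 ± 0.04 with PH (0.0153) and 0.30 ± 0.08 with PEE-PH-TA (0.0121), and Dtx3 by 0.43 ± 0.12 with PEE-PH-TA (0.0192). With PH Itch rose by 0.14 ± 0.05 (0.0398, and -0.078 with the mean of all probes) and Nle1 fell by 0.16 (SE 0.04, 0.0120). The call of Itch was kept in 12 of 27 fits that left out an array or a replicate number.

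In the nuclear complex, Rbpj, which encodes the DNA-binding protein of the pathway, fell by 0.27 (SE 0.05) on average with PEE (adjusted p = 0.000593) and was lower in 12 of 12 comparisons within a slide. Its mean relative signal was 1.39 ± 0.16 (SD, n = 3) in control, 1.12 ± 0.10 with PEE and 1.03 ± 0.21 with PEE-PH-TA, where the difference of -0.35 ± 0.10 also passed (0.0237). The average kept its call in 8 of 8 alternative settings and 27 of 27 fits that left out an array or a replicate number. The coactivators Maml3 (0.19 ± 0.05, 0.00455) and Ep300 (0.18 ± 0.06, 0.0284) rose with PEE and the corepressor Hdac1 fell by 0.13 (SE 0.03, 0.00133). With PH the corepressors Tle4 (0.24 ± 0.05, 0.00224) and Cir1 (0.18 ± 0.04, 0.00510) rose, and Crebbp, an acetyltransferase, fell by 0.12 (SE 0.04, 0.0268), although with the mean of all probes Tle4 was at -0.014 and Crebbp at 0.012. Crebbp also fell by 0.15 (SE 0.04) with TA (0.0300).

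Of the 4 targets tested outside the member list, Hes5 and Hes6 passed in some comparisons. For Hes5 the mean relative signal was -1.90 ± 0.22 (SD, n = 3) in control, -2.16 ± 0.06 with PEE, -0.84 ± 0.09 in the PEE-PH pair and -0.86 ± 0.17 in the mixture of all 3. It rose by 0.74 ± 0.12 on average with PH (adjusted p = 0.000276), 0.43 ± 0.12 with TA (0.0344) and 1.04 ± 0.24 with PEE-PH-TA (0.00553), and the averages of PH and TA did not pass with the 75th percentile as a covariate (0.269 and 0.595). The call of Hes5 for the average of TA was kept in 15 of 27 fits that left out an array or a replicate number. That for the average of PH was kept in 27. Hes6, Hes7 and Nrarp, a feedback target, passed in none of the 3 averages. Hes6, named after its values were seen, had a mean relative signal of 1.41 ± 0.10 (SD, n = 3) in control, 1.76 ± 0.04 in the PEE-PH pair and 1.77 ± 0.03 in PEE-TA. It rose by 0.35 ± 0.08 for PEE-PH (adjusted p = 0.00351), which missed the threshold with the percentile as a covariate (0.0591). For PEE-TA it rose by 0.36 ± 0.08 (0.00480), which missed it without replicate 2 (0.0657) or 3 (0.0724).

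Markers of follicle compartments and of other cell types moved with the same groups. Of 6 hair matrix markers, 5 rose on average with PH, 5 with TA and 1 with PEE, and of 10 inner root sheath markers 8 rose with PH, 9 with TA and 0 with PEE. With the 75th percentile as a covariate 0 markers of either list passed with PH or with TA. Without replicate 1 the counts with TA fell to 0 (matrix) and 1 (inner root sheath), and without replicate 2 to 3 and 2. Those with PH were 2 and 6 without replicate 1, and 5 and 9 without replicate 2. The summed level of the 10 inner root sheath markers, in multiples of the array's 75th percentile, was 507 to 683 in control, 451 to 618 with PEE and 895 to 1014 with PH-TA. PEE had the lowest mean sum and control the next, as for the mean relative signals of Notch3, Jag2 and Dll1. All 10 inner root sheath and all 9 hair shaft markers, which mark the labelled tissue, were well above background on 24 of 24 arrays. Of 10 blood endothelial markers 5 rose on average with PEE, among them Cdh5 (0.34 ± 0.08) and Tek (0.30 ± 0.09), beside Notch4 and Dll4. That count fell to 1 without replicate 1 and to 0 without replicate 2. The summed level of the 10 markers was 57.0 to 62.4 in control and 69.6 to 78.0 with PEE alone. In PEE-PH (59.4 to 69.5), PEE-TA (60.0 to 69.4) and PEE-PH-TA (56.2 to 66.1) it overlapped control. Of 9 pericyte and smooth muscle markers 4 fell with PEE, led by Cnn1 (-0.83 ± 0.12) and Tagln (-0.79 ± 0.08), and their sum was 57.8 to 59.7 in control and 44.0 to 49.9 over the 12 arrays with PEE. The other 5, none past the threshold, had differences above 0, and the median of the 9 was 0.031. Against control, 14.9% of all genes rose with PEE-PH, 10.2% with PEE-TA, 12.1% with PH-TA, 0.399% with TA and 7.78% with all 3 compounds. Of 8 skeletal muscle markers 8 rose with the PEE-PH pair (median difference 1.05), 8 with PEE-TA (1.16), 6 with PH-TA (0.83), 3 with TA (0.91), 2 with all 3 compounds (0.71) and 0 with PEE or PH. These counts fell to 2, 2, 1, 0 and 0 without replicate 2 and, for PH-TA, to 0 with the 75th percentile as a covariate. Their summed level was 17.5 to 21.8 in control, 38.5 to 47.1 with PEE-PH, 33.7 to 55.5 with PEE-TA and 30.4 to 34.9 with PH-TA, groups in which Notch2, Notch3 and Heyl also rose. Of 8 proliferation markers 7 fell with PEE, 7 with PH and 0 with TA. With the 75th percentile as a covariate 7 still fell with PEE, and 0 with PH. Of 8 dermal papilla markers 7 were tested, and 0 changed with PEE, 1 fell with PH and 1 with TA. Of 9 hair shaft markers 5 rose with PH and 5 with TA, and 1 fell with PEE. With the 75th percentile as a covariate 0 hair shaft markers passed with PH or TA. Of 9 outer root sheath and basal keratinocyte markers 5 fell with PEE, 2 rose and 2 fell with PH, and 2 rose with TA. With the covariate 4 of these fell with PEE, and 0 passed with PH or TA. The part of these shifts in the results on Notch genes was not tested.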

How the data were processed

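RNA of whole follicles was measured on 24 one-colour arrays. The deposited signal intensities come from Agilent Feature Extraction 12.0.3.1, which per the file headers removed background and trends across the array. Biotin is the dye label given by the submitters, but each scan has a single green channel. Probe positions in the files are on NCBI37 (mm9). The authors also deposited a table of log2 values, whose column medians ran from 3.73 to 3.78, and whose background step is not given in the sources used here.

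Processed signal intensity was taken to log2 and set relative to the 75th percentile of non-control spots on its array. Spots marked non-uniform (41) or as outliers were set to missing, no spot was saturated, and testing required a probe well above background on all arrays of some group. This left 33340 probes and 22065 genes or transcripts, each by its probe with the highest mean. Group means were fitted with limma 3.58.1 in R 4.3.3 (16 residual degrees of freedom, 2.19 prior), without a block. P-values rest on the spread between the 3 independent experiments within groups, pooled over the 8 groups, and differences between replicate numbers stay in that spread. The fit was also run on simulated data with known shifts, drawn independently for each gene and array. The simulation held no slide effect and no difference in the 75th percentile, so it cannot bear on those.

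Members and lists were chosen with earlier results of these data known. All members are described. Per role, in each average effect and for all 3 compounds against control, the text names other pathway genes past the threshold, at most 2 that rose most and 2 that fell most. The 3 most correlated genes per member were ranked. Promoters are from RefSeq. Slide and replicate number were the same thing. The number is thus a batch that holds every group once. Among 84 pairs of arrays with the same number, deviations from group means correlated above 0.1 in 44 (median 0.10, against -0.050 for other pairs). The fit without a block was kept as chosen at the start, and blocked values are given where they change a member's call or move a count by over 1.5 times. Alternatives changed the scaling (quantile normalization), the background (normexp, offset 50), the source (the deposited log2 table), the filter (none), the summary per gene (mean of its probes), the model (the replicate number as a block, a robust trended prior, a fit to the compared arrays alone, or the log2 75th percentile as a covariate) or the arrays (1 array or number left out). The 3 comparisons of PEE-PH-TA with pairs were added after the data were seen. Figures were drawn with Python 3.11.15 and matplotlib 3.10.9.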

Additional observations from a re-analysis of the deposited data

How the results depend on the processing

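Over 170 values (10 members in 17 comparisons), 1425 of 1500 values under alternative settings kept their side of the threshold, 49 lost a call, 25 gained one and 1 reversed. The log2 75th percentile as a covariate ended most calls. Members past the threshold then numbered 0 for TA, PH-TA, the averages of PH and TA and PEE-PH-TA against PH-TA, and 2 for PEE-PH, PEE-TA and the average of PEE, and Dll1 reversed in the average of PH (-0.023). The cause was not tested. The count for PEE against control was 2 (Hey1 and Hes2) after quantile normalization, with the authors' deposited table, with the replicate block and with the trended prior, and 2 (Hey1 and Jag1) after normexp. That for TA was 0 with the authors' table, without the filter (36593 genes tested) and with the arrays compared alone, which gave 3 for PEE-TA. When PEE-PH-TA was set against PH-TA, the arrays compared alone gave 1 (Hes2, -0.57, 0.0271). The authors' table gave 1 there too (Notch3, -0.27, 0.0474), and Hey1 and Jag2 lost their calls under both settings. Normexp gave 5 for the average of PH and 1 for PEE-PH against its sum. With the replicate block, Hes2 with PEE gained its call and Notch2 with PEE-TA lost it, and no other call of a member changed. Of the arrays, 21 of 24 correlated best with their own number.

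Leaving out an array or a replicate number, 112 of 2340 values lost a call, 23 gained one and 0 reversed. The counts ran from 0 to 2 for PEE, 0 to 0 for PH and TA, 3 to 6 for PEE-PH, 2 to 6 for PEE-TA, 2 to 5 for PH-TA, 1 to 3 for PEE-PH-TA, 1 to 6, 0 to 5 and 0 to 5 for the averages of PEE, PH and TA, 0 to 0 against sums and against PEE-PH or PEE-TA, and 0 to 3 when all 3 compounds were set against PH-TA.

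Of all called genes 41.6% rose with PEE-PH, 40.0% with PEE-TA, 40.8% with PH-TA, 30.4% with PH and 34.8% for the average of TA, against 55.0, 52.3, 55.6, 45.5 and 46.9% after quantile normalization. Normexp gave 66.8% with PEE (47.8%), and the median over all genes was then -0.11 (PEE-PH), -0.13 (PH-TA) and 0.11 (all 3 compounds against PH-TA). Among other pathway genes the mean of all probes reversed Pofut1 (-0.062 with PH, -0.21 with PEE-PH-TA), Crebbp (0.012), Tle3 (-0.083), Tle4 (-0.014) and Itch (-0.078) with PH. For PH the covariate reversed Ep300 (-0.0015) and Tle3 (-0.033), and normexp Dll3 (-0.083).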
